A study of Mus musculus with 4 samples.

Results

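The genes described here are 37 genes of the sarcomere and the contractile apparatus, the members of this account, out of 27998 genes counted in each library. They were taken by symbol, and their levels were followed in cells with and without a contractile programme. A cell was called contractile when at least 5 of 8 genes, Tnnt2, Myl4, Myl7, Actc1, Tnni1, Ttn, Myh6 and Myh7, each had 2 or more UMIs (unique molecular identifiers, which count captured RNA molecules). These 8 are called gate genes below, and the other 29 members had no part in that choice. All 37 symbols were found in all 4 libraries, and 36 of the 37 had UMIs in contractile cells.

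The sarcomere is the repeating unit of striated muscle, in which thick filaments of myosin pull on thin filaments of actin. Troponin and tropomyosin on the thin filament let calcium switch the pull on and off, titin spans from the Z-disc to the M-band, and Z-disc proteins anchor the filaments. Many of these proteins exist as several isoforms encoded by separate genes, and heart muscle of atria and ventricles is known to use different sets of them. In the mouse embryo the first cardiomyocytes arise from mesoderm in which the gene Mesp1 was active, and they begin to beat while the heart is still a tube.

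Single cells were collected on embryonic days E8.0 and E8.25 (early) and E9.5 and E10.5 (late), with 1 library per stage. All embryos were Swiss Webster mice of the genotype Mesp1Cre;Rosa26-GFPflox/+, in which Cre made from Mesp1 switches on GFP for good in the early mesoderm and all its descendants, and cells that were GFP positive and DAPI negative (living) were sorted. Early embryos were dissected for the body's upper part and late ones for the pharyngeal apparatus and heart, so region and stage cannot be told apart. Embryos were pooled, heart cells outside the Mesp1 lineage were not captured, and no stage had a replicate, so intervals between stages cover counting error only (95%, exact).

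After filtering, 7118, 2884, 3921 and 7525 cells remained, in the order of the stages, with a median of 21321, 35216, 17254 and 15205 UMIs per cell. The E8.25 library was thus the deepest and the smallest. Between 16 and 78 cell barcodes were shared by any pair of libraries. Globin genes, made by red blood cells, took 116.5, 2811, 9.002 and 5060 CPM (UMIs of a gene in every 1000000 UMIs of the summed cells) in contractile cells, and this order of stages is used throughout. No contractile cell had 5% or more of its UMIs in globin genes. Free RNA in the droplets was not removed, and its part in the values below was not tested.

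Contractile cells numbered 342, 73, 483 and 250, which is 4.80% (4.32 to 5.33), 2.53% (1.99 to 3.17), 12.3% (11.3 to 13.4) and 3.32% (2.93 to 3.75) of retained cells. With every cell thinned to 10000 UMIs the shares were 3.98%, 1.78%, 11.0% and 3.21%. The share was highest at E9.5 at either depth. All 8 gate genes were present in 151, 20, 238 and 102 of these cells. Cells just inside the limit, with exactly 5 gate genes, numbered 56, 23, 88 and 45, and cells just outside it, with 4, numbered 102, 65, 150 and 72.

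The cells were checked against markers that the choice did not use, and 6 of 8 cardiac factors were higher in contractile cells (edgeR, below). Nkx2-5, a transcription factor of heart progenitors and cardiomyocytes, had a UMI in 93.6%, 78.1%, 70.0% and 85.2% of contractile cells. The same share was 13.6%, 14.5%, 12.4% and 6.63% of the other cells, which were as deeply sequenced (median of 21411, 35268, 17246 and 15218 UMIs against 19573.5, 33980, 17359 and 14922 in contractile cells). Of the contractile cells 1, 0, 1 and 0 carried 3 endothelial genes, and 0, 0, 0 and 1 carried 2 UMIs of skeletal muscle factors. Smooth muscle genes were not absent, since a list of 6 summed to 619.2, 653.8, 812.9 and 1087 CPM in contractile cells against 41.74 to 75.37 CPM in the others. Of the cardiac factors, Hand1 at E8.0 (89.92 against 143 CPM) and Isl1 at E9.5 (62.34 against 79.81 CPM) were lower in contractile cells. Wt1, Upk3b and Tbx18, genes of the epicardium, summed to 1.939, 17.12, 126.3 and 159.6 CPM in contractile cells against 7.612, 13.25, 54.71 and 75.88 CPM, and their part in the late levels was not tested.

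The 37 members together took 2.99%, 2.08%, 5.11% and 5.27% of all UMIs in contractile cells. In the other cells they took 0.0767%, 0.0781%, 0.129% and 0.0937%. All levels below are CPM over the summed cells of a library. The kit tags the 3′ end of each molecule, so a level counts molecules and does not grow with gene length. Reads of close relatives such as Myh6 and Myh7, or Actc1, Acta1 and Acta2, could in part be assigned to the wrong member, and their levels are uncertain to that extent.

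**Figure D1:**
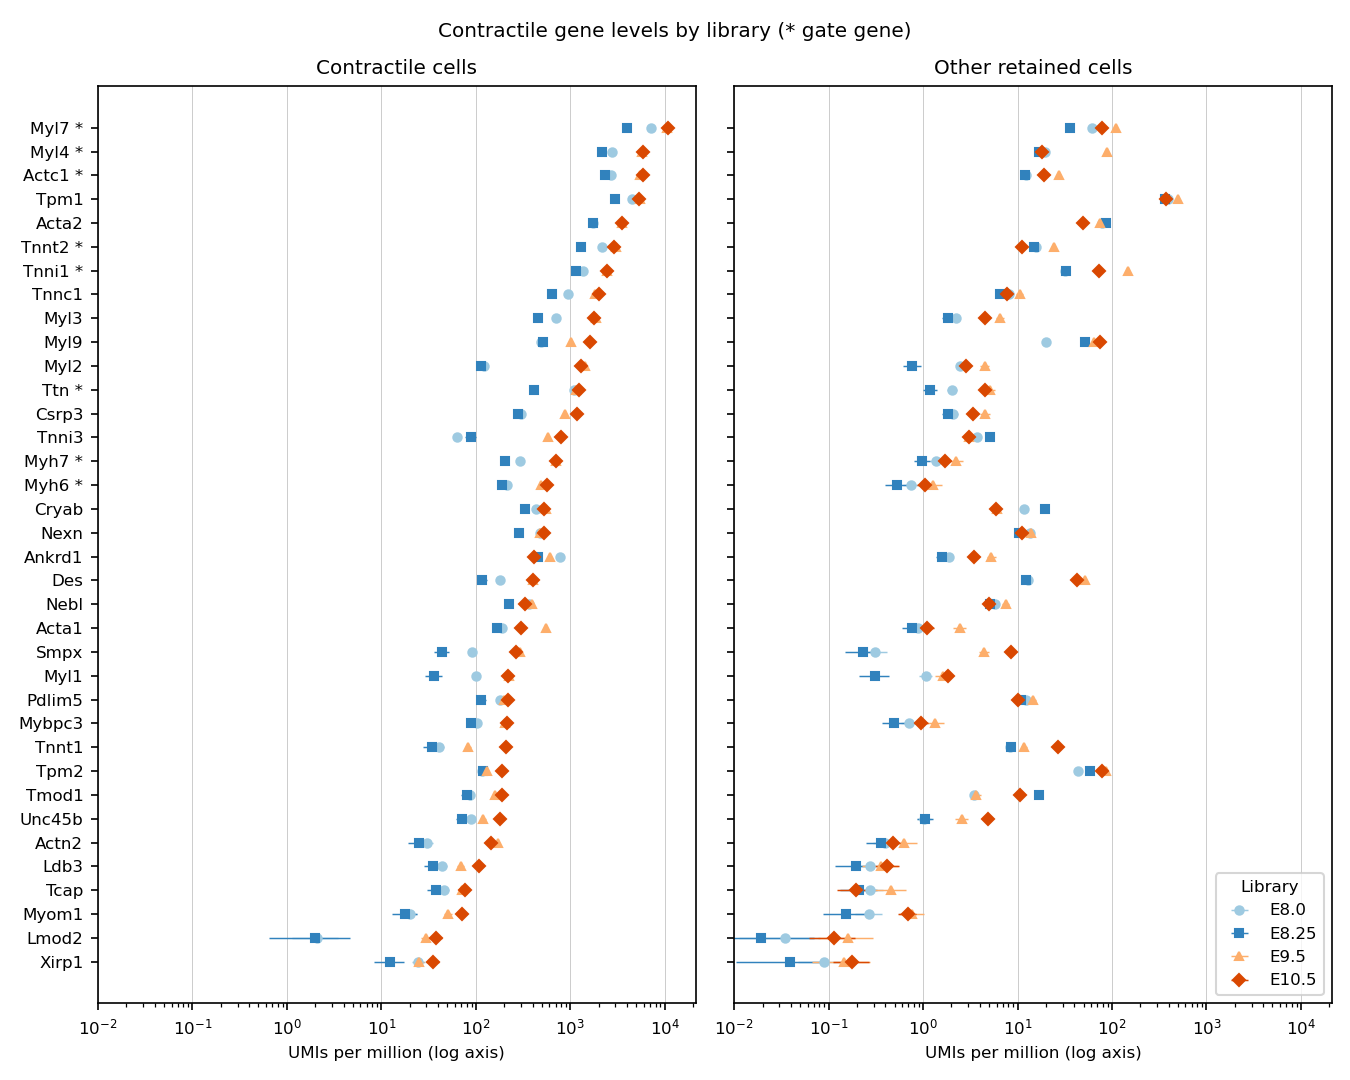
Level of 36 members (Myom2, without a UMI in contractile cells, is left out) in contractile cells on the left and in all other retained cells on the right, in CPM on a log axis, with 1 marker per library and bars for the 95% counting interval. In contractile cells Myl7 leads with 10900 CPM at E10.5, and in the other cells Tpm1 leads, at 362.7 to 500.4.

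Among the myosin light chains, Myl7, the atrial regulatory light chain that embryonic heart uses widely, was the most abundant member in every library, at 7134, 3946, 10640 and 10900 CPM in contractile cells. Its partner Myl4, an essential light chain of embryonic and atrial muscle, was at 2749, 2186, 5763 and 5885 CPM. Myl3, the ventricular essential light chain, was at 700.9, 455.9, 1860 and 1785 CPM. The ventricular regulatory light chain Myl2 was far scarcer in the early libraries than in the late ones, at 121.5, 113.5, 1424 and 1311 CPM. It was also patchy, with a UMI in 42.1%, 39.7%, 48.4% and 33.2% of contractile cells. In the other cells, at like depth, that share was 4.80%, 2.70%, 7.74% and 4.69%. Myl9, a light chain of smooth muscle and non-muscle cells, was at 486.1, 518.4, 1019 and 1622 CPM, and Myl1, a light chain of fast skeletal muscle that early heart also makes, at 101.1, 35.83, 223.1 and 221 CPM.

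The myosin heavy chains, which are the motors themselves, were rarer as molecules than Myl7, Myl4 and Myl3 in every library. Myh7, the slow or beta chain, was at 292.3, 201.9, 702.1 and 696.7 CPM, with a UMI in 78.1%, 52.1%, 63.8% and 73.2% of contractile cells. Myh6, the fast or alpha chain, was at 216.2, 187.1, 487.0 and 571.8 CPM, with a UMI in 60.8%, 43.8%, 70.2% and 62.4%. Myh6 had a UMI in only 1.56% to 2.07% of the other cells. The genes lie next to each other on chromosome 14 (GRCm38.p6, Myh6 at chr14:54941921-54968017 and Myh7 at chr14:54970684-54994626).

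Of the actins, Actc1, the cardiac form, was at 2679, 2304, 5516 and 5876 CPM. Acta2, the smooth muscle form, which the early heart tube also makes, was at 1725, 1756, 3517 and 3484 CPM, and had a UMI in 93.3%, 94.5%, 96.9% and 88.4% of contractile cells. Acta1, the skeletal form, peaked at E9.5, at 187.1, 168, 551.9 and 300.2 CPM. Both tropomyosins, the rods that lie along the actin filament, were found in nearly every kind of cell. Tpm1 was at 4502, 2977, 5452 and 5396 CPM in contractile cells and had a UMI in 87.0% to 99.1% of the others. Tpm2 was at 115.1, 118.7, 130.8 and 187 CPM against 43.24, 58.89, 86.43 and 78.98 CPM in the others.

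Troponin has a tropomyosin-binding (T), an inhibitory (I) and a calcium-binding (C) subunit. Tnnt2, the cardiac T subunit, was at 2157, 1283, 3021 and 2878 CPM, and Tnnt1, the slow skeletal T subunit, at 40.41, 34.64, 83.49 and 208.1 CPM. Tnni1, the slow skeletal I subunit that serves the embryonic heart, was at 1347, 1162, 2419 and 2437 CPM. Tnni3, the cardiac I subunit that replaces it around and after birth, was at 63.68, 88.79, 587.2 and 788.9 CPM, and Tnnc1, the C subunit of heart and slow muscle, at 951.7, 636.3, 1806 and 2003 CPM. Tnni1 and Myl4 had UMIs in 100% of contractile cells in all 4 libraries, but both are gate genes. In the other cells Tnni1 had a UMI in 31.1%, 41.6%, 51.7% and 33.3% and Myl4 in 25.4%, 36.6%, 39.7% and 20.4%.

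Structural genes of the Z-disc and M-band were in the middle and low range. Ttn, the giant spring protein titin, was at 1089, 409.7, 1152 and 1222 CPM, and was lower at E8.25 than in every other library. Csrp3, a Z-disc protein of striated muscle, was at 303.9, 276.3, 886.1 and 1189 CPM. Ankrd1, a cardiac ankyrin repeat protein linked to titin and to stress responses, was at 776.6, 451.5, 606.2 and 415.5 CPM, the only member with its highest level at E8.0. Actn2, the alpha-actinin that cross-links actin at the Z-disc, was at 30.42, 25.08, 171.6 and 142.9 CPM. Lmod2, a leiomodin that lengthens thin filaments, went from 14 UMIs in all 342 cells at E8.0 and 5 in the E8.25 library to 262 and 158 in the late libraries, or 2.088, 1.991, 29.48 and 37.58 CPM.

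Among the remaining members with UMIs, Nexn, an actin-binding Z-disc protein, was at 282.7 to 522.6 CPM. Xirp1, an actin-binding protein of cell junctions, was at 12.34 to 34.96 CPM. The intermediate filament protein desmin (Des) was at 181.3, 117.5, 406 and 407 CPM, and the small chaperone Cryab at 433.6, 332.1, 546.5 and 523.0 CPM. Myom2, an M-band protein of adult heart and fast muscle, had no UMI in any contractile cell. At this depth that allows up to 0.4474, 1.194, 0.3376 and 0.7136 CPM (3 UMIs per library). Its relative Myom1 was at 20.28, 17.92, 50.64 and 71.83 CPM.

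The promoters of Actc1, Acta1, Myl7 and Myl3 are shown because these actin and light chain genes carry the same sequence element close to their start. RefSeq promoters (GRCm38.p6, 250 bases before to 50 after the start) were matched for 32 of the 37 members, 42 promoters in all. The CArG box, the site known to be bound by serum response factor in muscle genes, was searched on both strands. It occurred in 9 of the 42 promoters (21.4%), of Acta1, Actc1, Ldb3, Myl3, Myl7, Myl9, Myom1 and Nebl, against 1.63% of all 32851 promoters. The motif CATTCC of TEAD factors occurred in 14 (33.3%) against 14.7% of all, TATAAA in 16.7% against 13.6%, and the MEF2 site in 4.76%, those of Mybpc3 and Ttn, against 3.19%. The motifs AGATAA and AGGTGT each occurred in 16.7%, against 11.2% and 13.7% of all, and CAAGTG in 4.76% against 13.6%. A match is a description of the letters and not of binding, and none of these motifs shared bases with the CArG boxes shown. Below are 150 bases of each, from 120 before to 30 after the start, read 5′ to 3′ on the gene's strand with the CArG box in capitals. The actins and Myl7 lie on the minus strand and Myl3 on the plus strand.
Actc1, chr2:114052846-114052995: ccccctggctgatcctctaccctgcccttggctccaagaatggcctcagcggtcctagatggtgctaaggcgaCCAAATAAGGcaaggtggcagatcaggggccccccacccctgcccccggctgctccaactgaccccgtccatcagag
Acta1, chr8:123894746-123894895: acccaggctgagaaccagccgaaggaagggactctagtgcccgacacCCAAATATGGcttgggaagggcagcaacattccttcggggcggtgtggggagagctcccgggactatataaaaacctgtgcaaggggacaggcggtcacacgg
Myl7, chr11:5898753-5898902: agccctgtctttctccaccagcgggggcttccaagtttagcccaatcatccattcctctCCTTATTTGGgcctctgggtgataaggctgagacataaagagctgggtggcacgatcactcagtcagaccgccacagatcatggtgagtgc
Myl3, chr9:110763558-110763707: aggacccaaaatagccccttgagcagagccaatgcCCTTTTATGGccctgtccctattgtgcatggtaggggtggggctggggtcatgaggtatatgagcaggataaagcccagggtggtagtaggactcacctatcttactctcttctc

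The first comparison asked which members follow the contractile programme beyond the genes used to define it. Counts were summed per library over contractile and over other cells, and edgeR's quasi-likelihood test compared the sums within the 4 libraries (adjusted p by Benjamini-Hochberg over 13923 genes). All 28 members outside the gate that could be tested were higher in contractile cells, and 0 were lower. Of all genes tested, 14.8% were higher and 14.6% were lower. The median log2 fold change of the 28 was 6.40, against −0.04 over all genes. Because the cells were chosen on 8 genes of the same kind, a high value here was built in to an unknown extent, and the gate genes themselves, from 4.89 for Tnni1 to 8.56 for Myh6, are given as a description.

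Myl3 led, with 700.9, 455.9, 1860 and 1785 CPM in contractile cells and 2.222, 1.826, 6.482 and 4.549 CPM in the others. Its log2 fold change was 8.24 (SE 0.137, edgeR adjusted p = 1.622e-07). Acta1 followed at 7.82 (SE 0.1005, edgeR adjusted p = 7.779e-08) and Xirp1 at 7.74 (SE 0.218, edgeR adjusted p = 1.691e-06). All 3 were higher in contractile cells in 4 of 4 libraries. At the other end stood Tpm2 at 1.04 (SE 0.129, edgeR adjusted p = 0.00198), Tnnt1 at 2.52 (SE 0.171, edgeR adjusted p = 0.0001702) and Des at 3.29 (SE 0.162, edgeR adjusted p = 5.172e-05). These 3 are also made by other muscle or by many cell types, as their levels outside the contractile cells showed.

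A wider list of 46 sarcomere genes that are no members behaved alike. Of these, 34 were expressed enough to test, 28 were higher in contractile cells and 0 lower, with a median log2 fold change of 3.43. The largest were Mybphl at 7.59 (SE 0.395, edgeR adjusted p = 4.545e-05), Trim55 at 7.44, Tnnc2 at 7.31, Lmod3 at 7.22 and Hspb7 at 7.21. Trim55 codes for a ubiquitin ligase of the M-band and Lmod3 for a leiomodin. All 6 smooth muscle genes were higher as well, from Smtn at 0.71 to Cnn1 at 6.04. Of the 6 endothelial genes 0 were higher and 3 lower, and all 7 erythroid genes were lower.

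Cells outside the gate were not free of the members, and which members they held depended on the kind of cell. In red blood cells (5% or more globin UMIs; 67, 315, 4 and 1026 cells), Tmod1, the tropomodulin that caps actin filaments in muscle and in the red cell membrane, was at 36.1, 83.7, 89.95 and 36.5 CPM against 2.98, 3.49, 3.02 and 2.95 CPM in unclassified cells. Tnni3 was at 57.7 and 22.5 CPM in red blood cells at E8.0 and E8.25, with a UMI in 64.2% and 52.7% of them. None of the 4 such cells of the E9.5 library had a UMI of it, those of the E10.5 library had 1.64 CPM, and unclassified cells had 1.59 to 3.41 CPM throughout. At E8.0 Tnni3 was thus nearly as high in red blood cells as in contractile cells, which had 63.68 CPM.

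Cells with skeletal muscle factors (2 or more UMIs; 21, 18, 104 and 299 cells) held another set at the latest stage. Tnnt1 was at 0, 8.5, 26.8 and 198.4 CPM in them, and at E10.5 was close to the 208.1 CPM of contractile cells. Tpm2 was at 39.2, 55.7, 162.1 and 219.8 CPM, and Des at 1.9, 15.7, 60.4 and 131.1 CPM. Ttn was at no more than 20.03 CPM and Myl1 at no more than 11.0 CPM in these cells. Endothelial cells had Tnni1 at 15.6, 32.8, 120 and 110.9 CPM, and unclassified cells at 21.6, 20.6, 99.8 and 77.9 CPM, so both held more of it in the late libraries.

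Order of onset was read from cells ranked by how many gate genes they had, leaving out the gene in question. A gene's onset is the lowest number of gate genes at which its level reached 50% of its level in the top group. It is a rank within each library and not a time. A cell's maturity, its kind, its depth and the mixing of cells in a droplet cannot be told apart by it. Tpm2 reached 50% earliest, with 3, 4, 0 and 3 gate genes, so at E9.5 even cells without a gate gene held over 50% of its top level. With 7 gate genes Tpm2 was at 78.7%, 80.9%, 164% and 174% of that level. In the late libraries it was thus lower in the top group than in the group before it, which eases its 50% mark. Tnni1 came next, with 6, 6, 6 and 5, then Myl4, Myl7 and Tnnt2, each with 7, 7, 6 and 6. Actc1 and Myh6 reached it only with 7, which is the most a gate gene can have since it is not counted itself, so the ranks of gate genes end at 7 and those of other members at 8 by construction. Nebl, the nebulin relative of the heart Z-disc, reached it with 7 of 8 in all 4 libraries. Acta1, Actn2, Ankrd1, Cryab, Myl1, Myl2, Myl3, Smpx, Tcap and Tnni3 reached it only with all 8 in every library. These 10 genes include the ventricular light chains, the skeletal actin and the adult troponin I. The top group was not an even mix of contractile cells. At E9.5 all 8 gate genes were present in 93.0% of the Irx4/Hey2 cells defined below and in 27.4% of the Nr2f cells. The part of this mix in the ranks was not tested. The order in any pair of libraries correlated across 36 genes with Spearman's rho of 0.56 to 0.81, a description over genes that share cells and depth. Part of this agreement was built in, since the ranks of gate genes and of other members end at different numbers in every library. It also includes Lmod2, whose rank of 5 at E8.25 rests on 1 UMI in the top group.

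**Figure D2:**
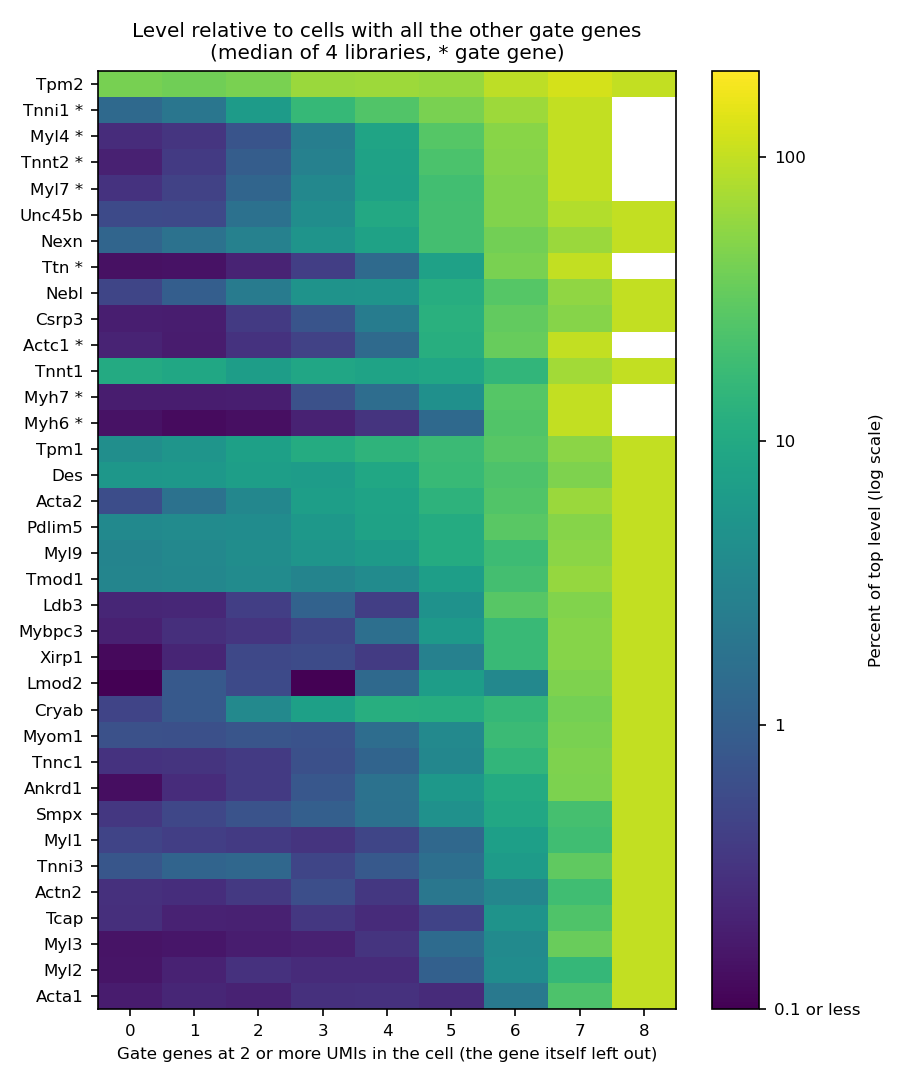
Level of each gene in cells with 0 to 8 gate genes, as a percent of its level in cells with all of them, on a log color scale and as the median of 4 libraries. White squares mark gate genes, which can have at most 7 others. Tpm2 is high from the left edge, Tnni1 brightens before the other gate genes, and Acta1, Myl2, Myl3 and Tcap brighten last.

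The spacing between early and late genes was wide. In cells with 3 or 4 other gate genes, Tnni1 was at 20.2%, 13.0%, 20.3% and 20.9% of its top level. Myl4 was at 4.85%, 2.0%, 9.99% and 3.36%, and Myl7 at 5.08%, 2.24%, 4.69% and 9.57%. Actc1 was at 0.821%, 0.719%, 1.13% and 0.864%, and Myh6 at 0.290%, 0.116%, 0.299% and 0.260%, so Tnni1 stood more than 10 times as high as Actc1 on this scale in all 4 libraries. Acta2, at 11.0%, 10.1%, 4.07% and 4.94%, was also higher than Actc1 at this step. Acta2 was at 13.2%, 19.7%, 22.9% and 18.0% with 5 or 6 gate genes, and Actc1 at 17.2%, 17.4%, 26.2% and 33.8%. There Acta2 was the higher only at E8.25. The onset of Acta2, at 8, 8, 7 and 7 gate genes, was not earlier than that of Actc1, at 7 in every library. Actc1 is left out of its own count and Acta2 is not, so their groups of cells differ. With 5 or 6 gate genes Tnni1 was at 56.1%, 49.4%, 53.5% and 68.7%, whereas Myh6 was at 12.3%, 3.56%, 14.1% and 23.4% and Acta1 at 0.653%, 0.650%, 1.48% and 1.51%.

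Cells with a single gate gene show which member appears alone. It was Myl7 in 66.4%, 51.2%, 38.3% and 29.8% of such cells and Tnni1 in 15.4%, 19.5%, 42.5% and 52.5%. Myl7 thus led in the early pair of libraries and Tnni1 in the late pair. Myh6 was the lone gene in 0%, 0%, 0% and 0.119%. In unclassified cells at E9.5 Tnni1 (99.8 CPM) exceeded Myl7 (63.8 CPM), which is the reverse of their order in contractile cells (2419 and 10640 CPM).

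The next comparison followed the members in contractile cells from stage to stage. With 1 library per stage there was no test, and a member is counted when its level differed at least 2-fold with an interval that left out no difference. From E8.0 to E10.5, 22 of 36 members were higher, where 16.6% of 12355 genes were, and 0 were lower, where 5.24% of genes were. The median log2 ratio was 1.09 over the members and 0.14 over all genes. The step lay between E8.25 and E9.5, where 24 were higher against 7.86% of all genes and 0 lower against 4.94%. From E8.0 to E8.25, 0 were higher (4.5% of all genes) and Ttn, Myl1 and Smpx were lower (3.28%), and from E9.5 to E10.5 only Tnnt1 was higher (7.67%) and 0 were lower (2.27%). The dissected region changed at the same step as these levels. Completeness of the programme differed as well, since 151 of 342, 20 of 73, 238 of 483 and 102 of 250 contractile cells had all 8 gate genes. In cells with all gate genes, the gene itself left out, Myl7 was at 10110 CPM at E8.25 and 16920 CPM at E9.5. Actc1 was there at 6732 and 9208 CPM, and Myl2 at 342.5 and 2762 CPM. With every cell thinned to 10000 UMIs, 16 members were at least 2-fold higher from E8.0 to E10.5 and 0 were lower. The median log2 ratio was then 0.93 over the members and 0.13 over all genes. Cells with all 8 gate genes are given below for the same 2 stages. For the other steps the part of completeness and of unequal depth was not tested.

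**Figure D3:**
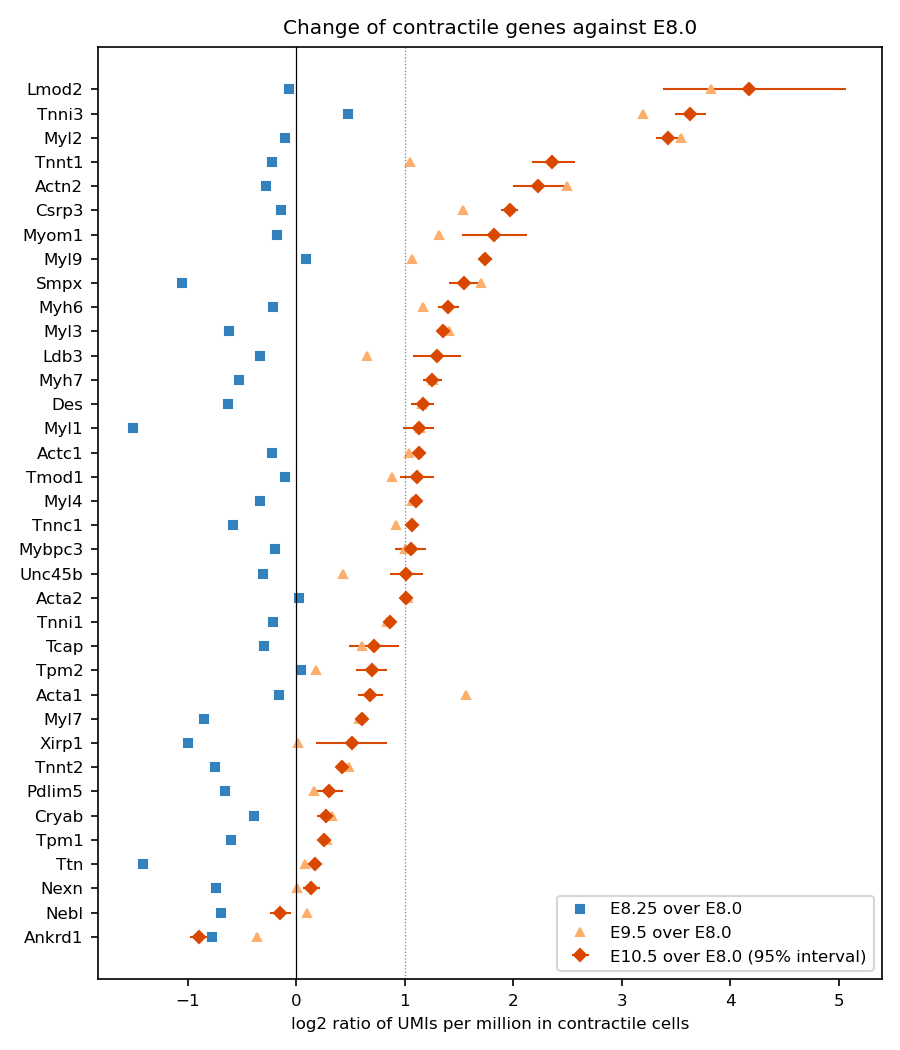
Log2 ratio of CPM in contractile cells against E8.0 for 36 members, with squares for E8.25, triangles for E9.5 and diamonds for E10.5 (bars, 95% counting interval). The dotted line marks a 2-fold higher level, and 22 diamonds lie at or beyond it, from Acta2 at 1.01 to Lmod2 at 4.17.

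Lmod2 had the largest ratio between E10.5 and E8.0, a log2 of 4.17 (3.38 to 5.07), resting on 14 UMIs at E8.0. Tnni3 followed at 3.63 (3.49 to 3.78) and Myl2 at 3.43 (3.32 to 3.54). Their share of cells with a UMI, thinned to one depth, was 2.03%, 3.92%, 21.9% and 23.1% for Lmod2 and 33.7%, 27.5%, 65.8% and 66.7% for Tnni3. For Myl2 it was 40.7%, 43.1%, 48.8% and 32.3%. Lmod2 and Tnni3 were therefore higher in level and found in a larger share of cells in the late libraries. Myl2 was over 10 times as high at E10.5 as at E8.0, but was not found in a larger share of cells there. These thinned shares were taken without an interval. Tnnt1, at 2.36 (2.17 to 2.57), and Actn2, at 2.23 (2.0 to 2.47), were next.

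The smallest ratios belonged to Ankrd1 at −0.90 (−0.98 to −0.82), Nebl at −0.15 (−0.24 to −0.05) and Nexn at 0.14 (0.06 to 0.22). Ttn, at 0.17, and Tpm1, at 0.26, were close to level as well. The gate genes spread from 0.17 for Ttn to 1.40 for Myh6. Both late libraries exceeded both early ones for 34 of 36 members, all but Nebl and Ankrd1, where 31.7% of all genes did so. At least 2-fold so were 16 of 36, against 6.03% of genes.

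These counts depended in part on scale. When the 4 sums were scaled by TMM, an alternative chosen after seeing the data, the median of all genes moved from 0.14 to −0.01, 14 members were at least 2-fold higher at E10.5, Ankrd1 was lower and Nexn turned to −0.01. In cells with all 8 gate genes, also chosen afterwards, 18 were higher and Ankrd1 was lower at −1.01. On the CPM scale a larger share of some genes lowers that of the rest, and more RNA of the members per cell and less RNA of other genes cannot be told apart.

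Isoform balance was measured as the share of one gene in the UMIs of a pair. Troponin I differed most between the stages. Tnni1 made up 95.5%, 92.9%, 80.5% and 75.5% of Tnni1 and Tnni3 UMIs, a difference of −19.9 points between E10.5 and E8.0 (−20.8 to −19.1). Even so, among cells with 5 or more UMIs of the pair, 0 cells at any stage had 80% or more Tnni3. Between 20% and 80% of Tnni1 were 1.84%, 8.45%, 32.2% and 36.4% of these cells, so in them Tnni3 was found beside Tnni1. Tnni1 is a gate gene and Tnni3 is not, so a cell with Tnni3 in its place was less likely to be called contractile. The 0 was thus built in to an unknown extent.

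Other pairs differed less. Myl2 made up 1.68%, 2.80%, 11.8% and 10.7% of Myl2 and Myl7 UMIs, a difference of 9.06 points (8.77 to 9.35). Tnnt1 made up 1.84%, 2.63%, 2.69% and 6.74% of Tnnt1 and Tnnt2, a difference of 4.90 points. Myl3 made up 20.3%, 17.3%, 24.4% and 23.3% of Myl3 and Myl4. Acta1 made up 6.53%, 6.80%, 9.10% and 4.86% of Acta1 and Actc1, and Acta2 39.2%, 43.3%, 38.9% and 37.2% of Acta2 and Actc1. Tpm2 never exceeded 3.83% of Tpm2 and Tpm1, and Myom2 had 0 of 136, 45, 450 and 302 UMIs of the myomesin pair, which allows a share of up to 2.68%, 7.87%, 0.816% and 1.21%. In the actin and myosin pairs the split of reads between relatives is uncertain. Tnnt2, Myl7, Myl4 and Actc1 are gate genes and their partners here are not, so the choice of cells favored them to an unknown extent.

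The myosin heavy chains had a like balance in the sums of all libraries but not within single cells. Myh7 made up 57.5%, 51.9%, 59.0% and 54.9% of Myh7 and Myh6 UMIs, a difference of −2.56 points (−4.68 to −0.423). Of cells with 5 or more UMIs of the pair (184, 30, 298 and 167 cells), 70.1%, 43.3%, 46.6% and 24.6% had between 20% and 80% Myh7. Cells with mostly Myh7 were 23.9%, 33.3%, 27.9% and 40.1%, and cells with mostly Myh6 were 5.98%, 23.3%, 25.5% and 35.3%. Among these cells a balance between both chains was thus the most frequent state at E8.0 and the least frequent at E10.5. Of all contractile cells, 56.7%, 32.9%, 56.7% and 53.2% had at least 1 UMI of each chain, so the share that held both was alike at E8.0 and E10.5.

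**Figure D4:**
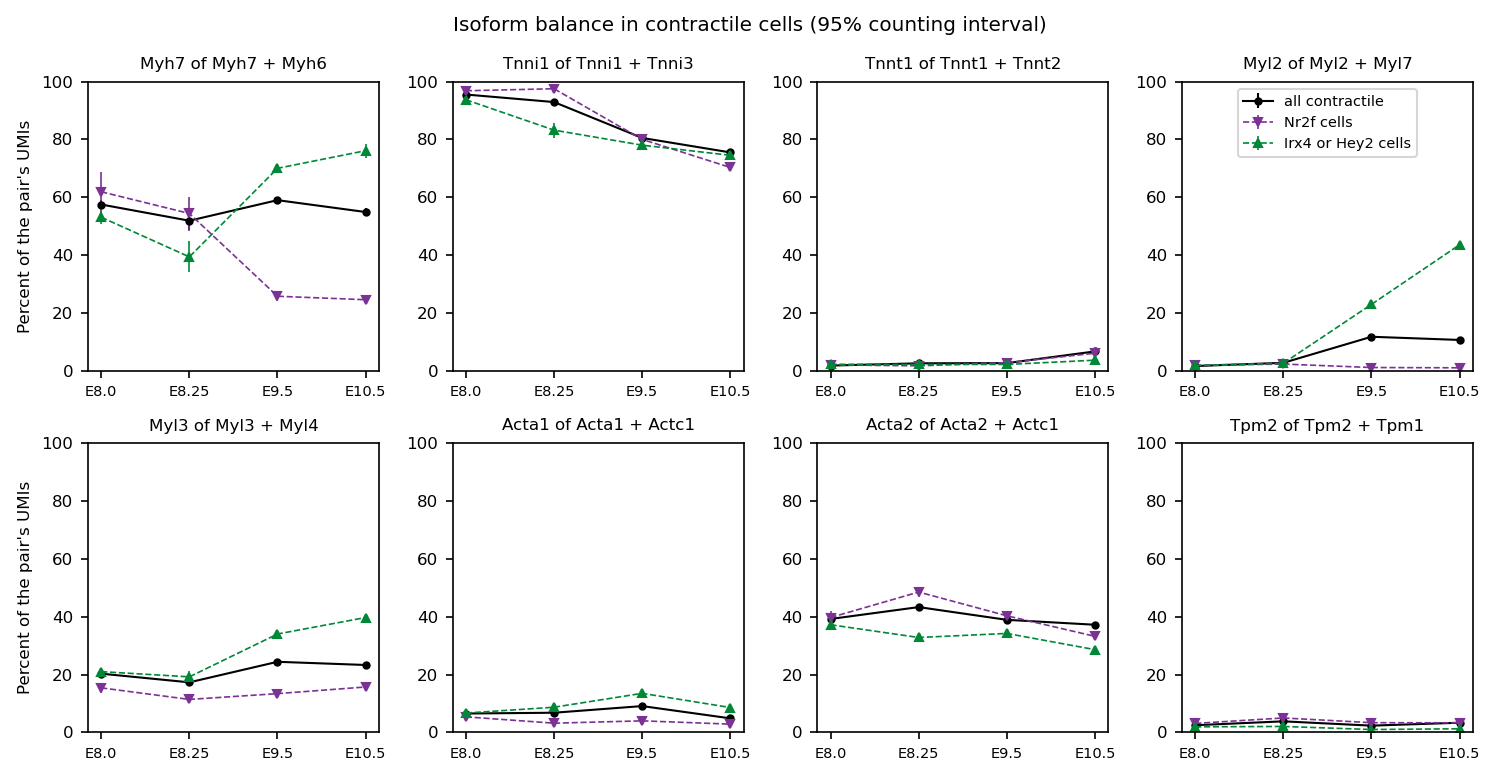
Share of the first gene of each pair in the pair's UMIs (percent, 0 to 100) at the 4 stages, for all contractile cells (black circles), cells with Nr2f1 or Nr2f2 (purple triangles pointing down) and cells with Irx4 or Hey2 (green triangles pointing up), with 95% counting intervals. The colored lines part at E9.5 and E10.5 for Myh7 and Myl2, while the black line for Myh7 stays between 51.9% and 59.0%.

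The last comparison asked whether members differ between cells with transcription factors of the atria and of the ventricles. Nr2f1 and Nr2f2 are known to act in atrial muscle and at the inflow of the heart, and Irx4 and Hey2 in ventricular muscle. Contractile cells with a UMI of either Nr2f gene and none of Irx4 or Hey2 are called Nr2f cells (43, 39, 259 and 148 cells), and those with the reverse are called Irx4/Hey2 cells (112, 10, 100 and 32 cells). No member had a part in this split, which is a label by factor and not a proven chamber. Nr2f1 and Nr2f2 were not particular to contractile cells. They summed to 14.17, 107.9, 253.3 and 201.2 CPM there and to 64.63, 113.0, 246.2 and 185.1 CPM in the other cells. Irx4 and Hey2 summed to 33.25, 14.33, 37.36 and 20.46 CPM against 6.045, 3.014, 4.051 and 2.901 CPM. Median depth was 20290, 34799, 17197 and 15157.5 UMIs in Nr2f cells and 20324.5, 35286.5, 18611.5 and 18698 in Irx4/Hey2 cells.

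In summed UMIs, the balance of the heavy chains differed between these cells in opposite directions at the early and the late stages. Myh7 made up 61.9% (54.6 to 68.7) of the pair in Nr2f cells and 53.1% (50.8 to 55.4) in Irx4/Hey2 cells at E8.0, and 54.4% (48.5 to 60.1) and 39.4% (34.3 to 44.8) at E8.25. At E9.5 it made up 25.8% (24.2 to 27.5) and 70.0% (68.6 to 71.4), and at E10.5 24.6% (23.0 to 26.3) and 76.1% (73.6 to 78.3). The share was thus higher in Nr2f cells in the early libraries, with intervals that overlapped at E8.0 but not at E8.25, and lower in the late ones. These intervals count UMIs and do not cover the spread between cells. At E8.25 the Irx4/Hey2 cells numbered 10, and 342 of their 350 UMIs of the pair came from 6 cells, so the early direction is uncertain. Behind these shares, Myh7 was at 129.9, 111.1, 147.7 and 258.9 CPM in Nr2f cells and 415.1, 395.7, 1587 and 1737 CPM in Irx4/Hey2 cells. Myh6 was at 80.11, 93.24, 424.2 and 793.1 CPM in Nr2f cells and 366.8, 607.8, 679.4 and 546.9 CPM in Irx4/Hey2 cells.

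The regulatory light chains parted at the same stages. Myl2 made up 1.89%, 2.37%, 1.17% and 1.08% of Myl2 and Myl7 UMIs in Nr2f cells and 1.92%, 2.65%, 23.0% and 43.6% in Irx4/Hey2 cells. In levels, Myl2 was at 74.7, 66.5, 100.7 and 141.6 CPM against 198.1, 223.6, 4349 and 7201 CPM. Myl3 made up 15.4%, 11.4%, 13.4% and 15.7% of its pair against 21.0%, 19.2%, 34.0% and 39.7%, and so was lower in Nr2f cells at all 4 stages. Tnni1 made up 96.8% of its pair in Nr2f cells and 93.7% in Irx4/Hey2 cells at E8.0, 97.5% (96.5 to 98.3) and 83.2% (80.4 to 85.7) at E8.25, and 70.3% and 74.5% at E10.5. Troponin I thus differed most at E8.25, where Irx4/Hey2 cells numbered 10.

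The Nr2f cells were nearer to the edge of the gate. All 8 gate genes were present in 18.6%, 17.9%, 27.4% and 39.9% of them and in 72.3%, 60.0%, 93.0% and 68.8% of Irx4/Hey2 cells, and the members took 1.58%, 1.35%, 3.73% and 5.51% against 4.12%, 4.34%, 7.89% and 6.91% of UMIs. Within cells that had all 8, the members took 4.65%, 4.27%, 8.65% and 8.11% against 5.21%, 6.68%, 7.96% and 7.57%. There the Myh7 share was still 58.8%, 53.9%, 28.2% and 20.8% in Nr2f cells against 51.8%, 38.3%, 70.1% and 75.6% in Irx4/Hey2 cells. The Myl2 share was 3.64%, 4.18%, 1.50% and 1.41% against 2.05%, 2.79%, 23.3% and 46.8%, so both parted at E9.5 and E10.5 in these cells too. Myl3 made up 21.1%, 19.3%, 20.1% and 18.5% of its pair there against 21.8%, 20.2%, 34.1% and 40.3%, so the early difference seen in all contractile cells was within the counting intervals and the late one was not. Tnni1 made up 93.6%, 95.3%, 69.7% and 63.3% against 93.2%, 79.5%, 77.9% and 73.4%.

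Contractile cells were also split by Myl2 itself. Contractile cells with 2 or more Myl2 UMIs (108, 19, 197 and 60 cells) had a Myh7 share of 53.2%, 62.2%, 68.2% and 72.8%, and cells without any (198, 44, 249 and 167 cells) one of 66.2%, 36.5%, 26.8% and 36.0%. The share was thus higher with Myl2 in the late libraries, as it was in Irx4/Hey2 cells, and also at E8.25, where it was lower in Irx4/Hey2 cells. Myl3 was at 1355, 1266, 3831 and 4155 CPM with Myl2 and at 305.4, 70.0, 442.3 and 760 CPM without. Tpm2 went the other way at the late stages, at 90.65 and 132.4 CPM with Myl2 and 165.0 and 203.2 CPM without. This split was made on a member, and it is a description with no test.

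**Figure D5:**
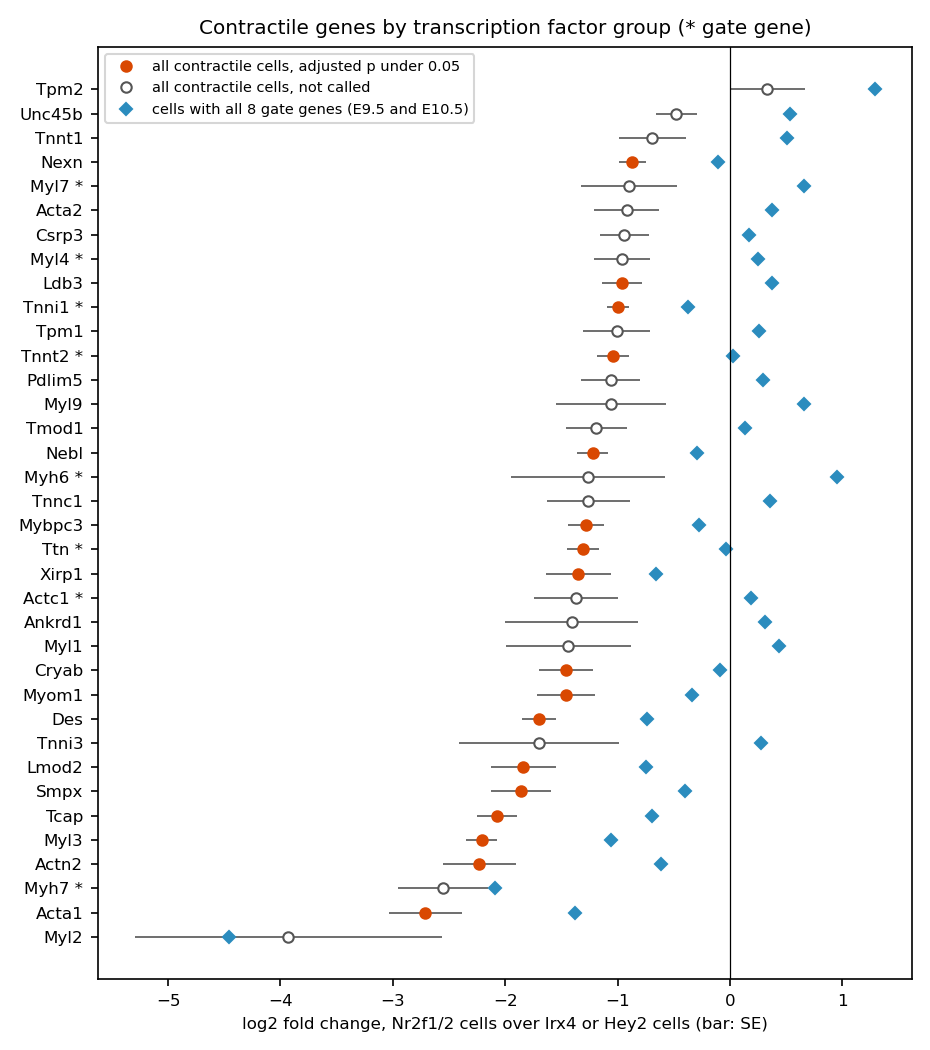
Log2 fold change of 36 members in Nr2f cells over Irx4/Hey2 cells from edgeR, with bars of 1 SE, for all contractile cells (circles, filled where the adjusted p was under 0.05) and for cells with all 8 gate genes at E9.5 and E10.5 (diamonds). Most circles lie left of 0, from Tpm2 at 0.33 to Myl2 at −3.93, while the diamonds of 18 members lie on the other side of 0 from their circles.

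Tested over the 4 libraries with edgeR, 17 of 36 members were lower in Nr2f cells and 0 were higher. Of 8715 genes tested, 2.26% were lower and 1.26% were higher. The lower members include 3 gate genes, Ttn, Tnnt2 and Tnni1, whose own UMIs helped to choose the cells, so their values are a description. Outside the gate 14 of 28 members were lower and 0 were higher. The median log2 fold change was −1.27 over the members and 0.02 over all genes. Alternatives chosen after seeing the data used the late libraries. In all contractile cells of E9.5 and E10.5, 17 members were lower and 1, Tpm2, was higher, where 4.18% of genes were lower and 3.81% higher. In the cells of these libraries with all 8 gate genes, 9 members were lower and 12 were higher, where 3.98% of genes were lower and 4.21% higher. These counts include the gate genes Tnni1 and Myh7 (lower) and Myh6, Myl7 and Myl4 (higher), for which 2 or more UMIs were required in both groups. The median log2 fold change of the members was −0.83 in the first case and 0.08 in the second. Between the same libraries the calls thus depended on whether cells with 5 to 7 gate genes were included. Without the library at E9.5 the count of lower members was 9, without that at E10.5 it was 28, and in a fit that did not pair the groups within libraries it was 0. For these fits the share over all genes was not taken, so the counts cannot be set against it.

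Acta1 differed most among the called members, with 67.12, 43.19, 175.8 and 195.7 CPM in Nr2f cells and 280.3, 550.5, 1375 and 729.2 CPM in Irx4/Hey2 cells. Its log2 fold change was −2.71 (SE 0.324, edgeR adjusted p = 0.0165). Actn2 was at 8.661, 4.114, 89.23 and 105.8 CPM against 56.06, 88.88, 328.6 and 306.8 CPM, a log2 fold change of −2.23 (SE 0.327, edgeR adjusted p = 0.0173). Myl3 was at 279.3, 192, 732.5 and 1244 CPM against 975.8, 994.9, 4095 and 4556 CPM, at −2.21 (SE 0.136, edgeR adjusted p = 5.6e-05). These 3 were lower in Nr2f cells in 4 of 4 libraries.

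Next in size were Tcap, the titin cap protein of the Z-disc, at −2.07 (edgeR adjusted p = 0.000158), and Smpx, a small muscle protein, at −1.86 (edgeR adjusted p = 0.0148). Lmod2, at −1.84 (edgeR adjusted p = 0.00658), rested on the late libraries, with 0 and 3 UMIs in Nr2f cells at E8.0 and E8.25. Des was at −1.70 (edgeR adjusted p = 0.000302), Cryab at −1.46 (edgeR adjusted p = 0.0264), Myom1 at −1.46 (edgeR adjusted p = 0.0132) and Xirp1 at −1.35 (edgeR adjusted p = 0.0302). Ttn, Mybpc3, Nebl, Tnnt2, Tnni1, Ldb3 and Nexn were also lower, by 0.87 to 1.31 on the log2 scale. In cells with all 8 gate genes Myl3, at −1.06, Acta1, at −1.38, Actn2, Tcap, Des, Lmod2, Smpx and Tnni1 were still called lower, together with Myh7 at −2.09.

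Myl2 and Myh7, which differed most between the late groups, did not pass the test over all 4 libraries. Myl2 was at −3.93 (edgeR adjusted p = 0.319) and Myh7 at −2.55 (edgeR adjusted p = 0.0575). The log2 ratio of Myl2 was −1.41, −1.75, −5.43 and −5.67 at the 4 stages, and that of Myh7 −1.68, −1.83, −3.43 and −2.75, so both were lower in Nr2f cells in 4 of 4 libraries by unequal amounts. Myh6, at −1.26 (edgeR adjusted p = 0.481), Myl7, at −0.90 (edgeR adjusted p = 0.420), and Tpm2, at 0.33 (edgeR adjusted p = 0.700), were not called either. In the late libraries alone Myl2 was at −5.67 (edgeR adjusted p = 2.016e-11), Myh7 at −3.21 (edgeR adjusted p = 0.0001367) and Tpm2 at 1.04 (edgeR adjusted p = 0.003481), and Myh6 was at −0.22 (edgeR adjusted p = 0.809). Of the 46 further sarcomere genes, 12 of the 29 tested were lower in Nr2f cells and 0 higher, and of the smooth muscle genes 1 of 5 was lower.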

How the data were processed

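The authors aligned reads of the 10x Genomics version 2 kit, which tags the 3′ end, to mm10 with Cell Ranger 3.1.0, per the submitters' processing notes, and deposited raw UMI counts per gene and cell for 4 libraries. Cells with at least 1000 genes and at most 10% mitochondrial UMIs were kept (4, 2, 3 and 28 failed). The highest Scrublet doublet scores (scanpy 1.11.5) were removed at 0.8% per 1000 cells (459, 70, 131 and 517 cells). Shares were also taken after thinning to 10000 UMIs, which left out 13.2%, 0.867%, 11.0% and 19.3% of cells. Sums per library were tested with edgeR 4.0.16 (quasi-likelihood, TMM, filterByExpr, library as block, adjusted p 0.05) in R 4.3.3. The SE is the log2 fold change divided by the root of F. On simulated counts of the contractile comparison 89% of genes changed by a log2 of 2 were found, and 91% in the factor comparison. Of genes changed by a log2 of 1, 72% and 69% were found, and 9 and 1 unchanged genes were called. The simulation used 1 dispersion for all genes of a comparison. P-values measure the spread between libraries of pooled embryos at different stages. DESeq2 1.42.0, other thresholds and leaving out libraries were alternatives. Genes named in full were the gate genes, the isoform pairs, the 3 largest and 3 smallest differences, the 10 largest called by factor and the 5 largest of the wider list; others were chosen after their values were seen. The members and lists were chosen with earlier results of these data known. Python 3.11.15 with scipy 1.17.1 gave the Clopper-Pearson, Poisson and Newcombe intervals.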

Additional observations from a re-analysis of the deposited data

Results flagged for a closer look

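For 6 members the direction between Nr2f cells and Irx4/Hey2 cells was opposite at different stages, with counting intervals on either side of no difference. Only members were searched for this, so the share of all genes that do the same is not known. The difference between stages was not tested, since each stage had 1 library. All but Tpm2 were lower in Nr2f cells early and higher at E10.5. In the order of the stages, the log2 ratio was −2.19, −2.70, −0.68 and 0.54 for Myh6, and −1.38, −1.58, −0.78 and 0.48 for Myl7. It was −1.94, −1.79, −0.66 and 0.38 for Myl9, −1.46, −1.51, −0.70 and 0.43 for Tnnt1, and −1.58, −1.19, −0.69 and 0.09 for Acta2. Tpm2 was at −0.56 at E8.0, and at 0.98 and 1.43 in the late libraries. The share of Nr2f cells with all 8 gate genes was 18.6%, 17.9%, 27.4% and 39.9% over the same stages, and its part in these ratios was not tested.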

How the results depend on the processing

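The 28 members outside the gate stayed at 27 to 28 higher in contractile cells under every alternative run. Shares over all genes were taken only for the main results and the factor fits on late libraries or cells with all 8 gate genes. Counts under the other alternatives cannot be set against such a share. In the order of the stages, the share of contractile cells was 6.24%, 4.79%, 16.1% and 4.28% with 4 gate genes, 4.02%, 1.73%, 10.1% and 2.72% with 6, 6.93%, 6.31%, 17.3% and 4.61% at 1 UMI per gate gene, and 3.98%, 1.78% and 11.0% at the first 3 stages after thinning. From E8.0 to E10.5, 14 members (TMM scaling) to 22 were at least 2-fold higher, 1 was lower with TMM or with all 8 gate genes and 0 otherwise, and Nexn turned to −0.01 with TMM. With every cell thinned to 10000 UMIs 16 were higher. Of the isoform pairs, 2 were lower after thinning against 4. Members called lower in Nr2f cells numbered 28 by DESeq2, 0 without the library block, 5 with factors at 2 or more UMIs, 22 without a filter, 21 without doublet removal and 9 to 28 without 1 library. In the late libraries alone 17 were lower and 1 higher. In cells with all 8 gate genes 9 were lower and 12 higher, and the log2 fold change turned to 0.51 for Tnnt1, 0.03 for Tnnt2, 0.28 for Tnni3, 0.36 for Tnnc1, 0.44 for Myl1, 0.25 for Myl4, 0.66 for Myl7, 0.66 for Myl9, 0.95 for Myh6, 0.19 for Actc1, 0.37 for Acta2, 0.26 for Tpm1, 0.37 for Ldb3, 0.17 for Csrp3, 0.31 for Ankrd1, 0.13 for Tmod1, 0.29 for Pdlim5 and 0.53 for Unc45b. Cells with all 8 gate genes are fewer, and this fit used the late libraries only. The early ones were left out because a group had under 10 such cells (8 Nr2f cells at E8.0, and 7 Nr2f and 6 Irx4/Hey2 cells at E8.25). The cause of these moves was not tested. Each stage had 1 library of pooled embryos, region changed with stage, and no genome of the files' build was used. Both tested comparisons paired the groups within libraries.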
